A study of Mus musculus with 6 samples.

Results

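The genes described here are 37 genes that dividing cells use to copy their DNA and to pass through mitosis. They were taken as a fixed list of symbols, from Mcm2 to Top2a, and not picked by their values, although earlier results of these data were known when the list was chosen. All 37 were found among the 24517 genes of the count tables, and all 37 were among the 16347 genes that passed the filter on low counts. By role, 16 of them act in DNA replication or at the entry into S phase and are called replication genes below, 19 act in G2 and mitosis and are called mitosis genes, and Mki67 and Top2a are general markers of dividing cells.

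The RNA came from mouse colon, with 3 libraries for each of 2 genotypes. Nsd2fl/fl mice carried floxed alleles of Nsd2 and served as controls. Nsd2ΔIE mice carried the same floxed alleles together with Cre under the Villin promoter, which is active in the intestinal epithelium and not in muscle, nerve or immune cells of the same tissue. Both groups were on the C57BL/6J background and were fed HFCD, a diet rich in fat and cholesterol. The labels give 16 weeks of feeding, and the methods of the study a longer time. All 6 libraries share the diet, so no value below bears on it. The labels do not state that each library came from its own animal, and p-values therefore measure the spread between these libraries only.

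Cells enter a division when G1 cyclins and their kinases release E2F factors from the RB family, and E2F then drives genes for the replication machinery. The MCM proteins form a ring-shaped helicase that is loaded on origins by CDC6 and started by CDC45 and the GINS complex. PCNA clamps the polymerases to DNA, and ribonucleotide reductase and thymidylate synthase supply the nucleotides. Genes of G2 and mitosis follow later, many of them through the CHR, read by the MuvB complex with MYBL2 and FOXM1, and through CCAAT boxes, read by NF-Y. In the colon, dividing cells lie mostly in the lower crypt, where stem cells and their transit-amplifying daughters renew the epithelium, and some dividing cells are lymphocytes of the mucosa.

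Promoters of 4 of the genes are printed here because the replication and mitosis genes differed in the letters their promoters held. The levels of the same gene groups parted in Nsd2ΔIE replicate 1, and a link between letters and levels was not tested. Sequences were taken from RefSeq on GRCm38.p6, from 250 bases before to 50 bases after the annotated start, 5′ to 3′ on the strand of the gene. Capitals mark the letters searched for, which were E2F letters (TTTCCCGC, TTTCGCGC, TTTGCCGC or TTTGGCGC), CHR letters (TTTGAA or TTCGAA) and the CCAAT box (CCAAT), each on both strands. Mcm7, a helicase subunit, has its window at chr5:138171834-138172133 on the minus strand. The window of Rrm2, the regulated subunit of ribonucleotide reductase, is chr12:24708004-24708303 on the plus strand. For Ccnb2, a B-type cyclin, it is chr9:70421505-70421804 on the minus strand, and for Ube2c, the ubiquitin-conjugating enzyme of the anaphase-promoting complex, chr2:164769679-164769978 on the plus strand. Mcm7 and Ube2c are the genes with the highest FPKM of their role lists, whereas Rrm2 and Ccnb2 were chosen after their values were seen.
Mcm7: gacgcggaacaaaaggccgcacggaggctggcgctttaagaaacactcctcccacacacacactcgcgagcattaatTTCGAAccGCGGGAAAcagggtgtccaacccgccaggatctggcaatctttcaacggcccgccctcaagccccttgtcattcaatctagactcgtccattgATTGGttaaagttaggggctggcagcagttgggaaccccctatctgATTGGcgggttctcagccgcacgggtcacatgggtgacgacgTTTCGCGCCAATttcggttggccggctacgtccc
Rrm2: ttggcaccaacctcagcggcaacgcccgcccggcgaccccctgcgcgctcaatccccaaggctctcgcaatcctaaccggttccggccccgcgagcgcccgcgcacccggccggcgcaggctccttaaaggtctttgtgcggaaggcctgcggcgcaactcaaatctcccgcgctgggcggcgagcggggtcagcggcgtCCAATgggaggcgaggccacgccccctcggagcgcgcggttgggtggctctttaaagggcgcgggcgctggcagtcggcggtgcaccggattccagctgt
Ccnb2: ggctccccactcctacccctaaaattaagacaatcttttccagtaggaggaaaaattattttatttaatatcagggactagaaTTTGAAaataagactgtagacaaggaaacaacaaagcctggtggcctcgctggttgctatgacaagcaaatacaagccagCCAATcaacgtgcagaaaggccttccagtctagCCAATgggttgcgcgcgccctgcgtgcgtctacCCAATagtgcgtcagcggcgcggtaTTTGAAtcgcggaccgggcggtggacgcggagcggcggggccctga
Ube2c: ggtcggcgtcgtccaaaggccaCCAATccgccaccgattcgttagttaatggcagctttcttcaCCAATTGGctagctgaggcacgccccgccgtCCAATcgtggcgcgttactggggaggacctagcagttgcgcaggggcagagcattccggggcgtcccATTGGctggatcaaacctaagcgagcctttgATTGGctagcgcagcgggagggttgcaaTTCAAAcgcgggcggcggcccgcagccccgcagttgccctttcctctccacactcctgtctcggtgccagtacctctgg

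The Mcm7 window held E2F letters 165 bases before the start and again 16 bases after it, the second run overlapping a CCAAT box. The same window held CHR letters 173 bases before the start and further CCAAT boxes 72 and 26 bases before it. Ccnb2 held CHR letters 167 bases before and 4 bases after the start, with 3 CCAAT boxes between them at 87, 54 and 21 bases before it. The spacing of these 3 boxes was therefore even. Ube2c held CHR letters 29 bases before the start and 6 CCAAT boxes, of which a pair read on opposite strands overlapped. Rrm2 held a single CCAAT box and neither of the other motifs.

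RefSeq windows were searched for 30 of the 37 genes, 13 of them replication genes and 15 mitosis genes. The set searched did not cover every gene or every chromosome. E2F letters stood in 5 of the 13 replication windows (38.5%) and in 1 of the 15 mitosis windows (6.67%), beside 2.33% of the 27025 genes with a window. The 6 genes were Mcm3, Mcm5, Mcm6, Mcm7, Cdc6 and Cdk1, so that 4 of the 5 replication genes with these letters were helicase subunits. CHR letters were distributed the other way, in 12 of the 15 mitosis windows (80%) and 3 of the 13 replication windows (23.1%), beside 19.5% of all genes. All 12 mitosis windows with CHR letters also held a CCAAT box, a pair of motifs found in 7.73% of all windows. So did all 3 replication windows with CHR letters. CCAAT boxes were common in both groups, in 9 of 13 replication windows (69.2%) and 14 of 15 mitosis windows (93.3%), beside 38% of all genes. The split of E2F and CHR letters held in kind for other genes of the cycle. E2F letters stood in 30.2% of 43 windows of other replication factors and 10.6% of 47 windows of other mitosis factors, and CHR letters in 14% and 66%. A match is a run of letters and not a measured binding site.

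The 6 libraries held between 38041832 and 38604680 counts, and the 37 genes had 126 to 8037 counts per library, so that counting error was small beside the spread between libraries. Nsd2, the targeted gene, stood at 47.8, 59.1 and 68.9 CPM (counts divided by the library total and by its TMM factor, on a common scale) in Nsd2fl/fl replicates 1 to 3 and at 24.5, 23.1 and 27.5 CPM in Nsd2ΔIE replicates 1 to 3. Its fitted log2 fold change was -1.23 with adjusted p = 0.302 by edgeR's quasi-likelihood test, and DESeq2 gave adjusted p = 3.88e-07. Counts from 4 Y-linked genes summed to 5058 to 6110 in the Nsd2fl/fl libraries and to 0, 0 and 1 in the Nsd2ΔIE libraries, whereas Xist had 0 to 4 counts in the former and 21217 to 24234 in the latter. The methods of the study name male littermates, so the Nsd2ΔIE libraries go against that statement. Genotype and sex pattern cannot be told apart here. Hoxb13, a posterior Hox gene that marks the distal colon, split the libraries another way, at 310.0 to 365 CPM in Nsd2fl/fl replicates 1 and 3 and Nsd2ΔIE replicate 1 and at 0.71 to 26.2 CPM in the remaining 3 libraries. Not all posterior Hox genes followed it, since Hoxd10 and Hoxd11 were highest in Nsd2ΔIE replicate 2, at 9.11 and 3.71 CPM.

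None of the 37 genes was called different between the genotypes. At an adjusted p under 0.05 the count was 0 of 37, beside 0.0306% of all genes tested (5 genes). Those 5 were Xist and the Y-linked Ddx3y, Eif2s3y, Kdm5d and Uty, all of them genes of the sex pattern, and Nsd2 was not among them. At a looser threshold, which asked for a log2 fold change beyond 0.32 in size and p below 0.05 before adjustment, 0 genes were higher and 0 lower in Nsd2ΔIE, beside 8.05% of all genes higher and 2.21% lower. In 0 of the 37 genes did the 3 values of one genotype all lie above or below those of the other, beside 11.4% of all genes without overlap in the higher direction and 7.28% in the lower. No gene of the list had an unadjusted p under 0.05, the smallest being 0.213 for Aurkb by edgeR, where 1816 of the 16347 genes tested had one. DESeq2 also gave no such p among the 37, where 2059 of the 16347 genes had one. At an adjusted p under 0.05 it called 0 of the 37, beside 455 of the 16347 genes.

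Fitted log2 fold changes (Nsd2ΔIE over Nsd2fl/fl) ran from -0.65 for Rrm2 to 0.12 for Gins2, with a median of -0.27 beside -0.04 for all genes tested. They were negative in 32 genes and positive in 5, namely Mcm2, Mcm6, Gins2, Ccne2 and Ccnb2. The 16 replication genes had a median of -0.09, which turned positive in 5 of 16 alternative fits, namely with library totals alone (0.06), on the log2(FPKM + 1) scale (0.10) and the log2(FPKM + 0.1) scale (0.11), with an epithelial covariate (0.0092) and without Nsd2fl/fl replicate 3 (0.23). The 19 mitosis genes had a median of -0.36 and stayed below 0 in all 16 alternative fits, between -0.66 and -0.02. All 37 intervals of 95% held 0, with a median half-width of 0.82 on the log2 scale, or 1.76-fold. The interval lay wholly above a 2-fold fall in 14 of the 16 replication genes and in 2 of the 19 mitosis genes, and wholly below a 2-fold rise in 36 of the 37.

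**Figure D1:**
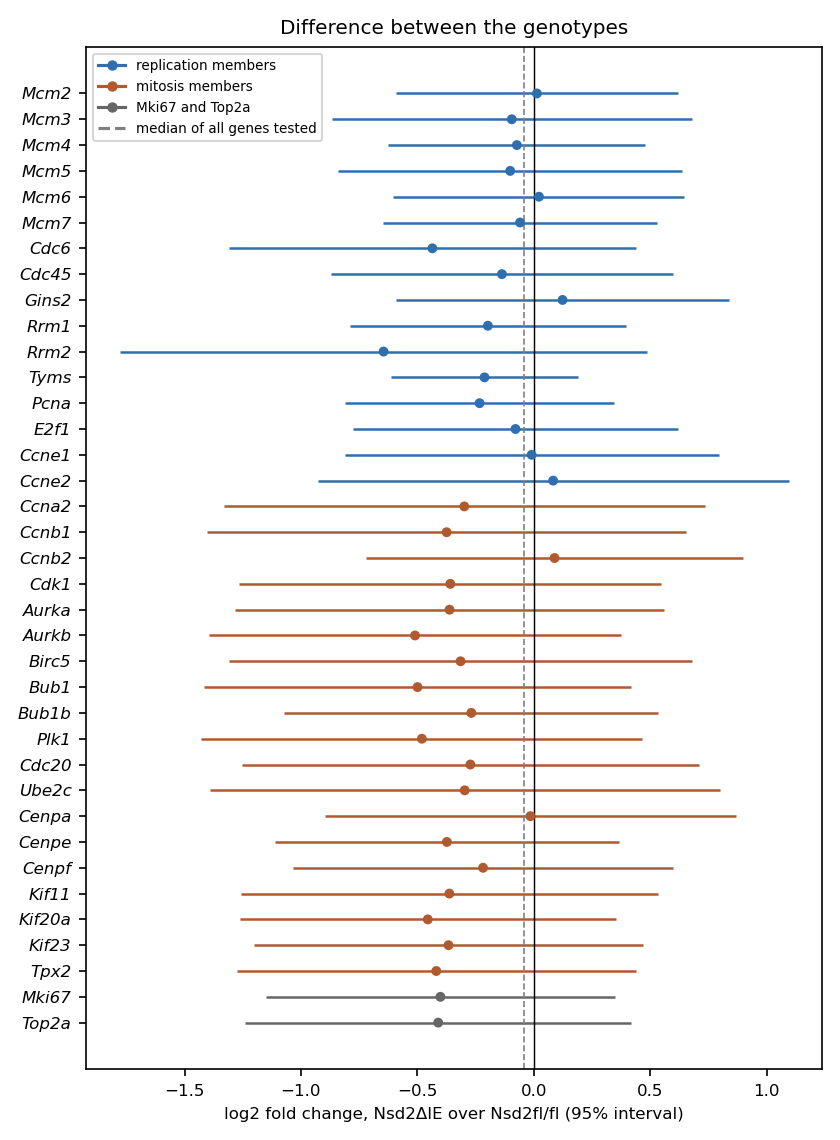
Fitted log2 fold change of each gene (point) with its 95% interval (line), Nsd2ΔIE over Nsd2fl/fl, n = 3 libraries per genotype. Every line crosses 0, and the dashed line marks the median of all genes tested at -0.04.

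These genes varied more between libraries of one genotype than most genes did. The within-genotype SD of log2 CPM had a median of 0.54 over the 37 genes and 0.26 over all genes tested. Between the lowest and the highest Nsd2fl/fl library the level differed 1.54-fold to 4.12-fold, with a median of 2.26-fold. In the Nsd2ΔIE libraries the same range was 1.08-fold to 2.37-fold, with a median of 1.84-fold, and 33 of the 37 genes had the wider range in Nsd2fl/fl.

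The helicase subunits Mcm2 to Mcm7 followed one pattern. Mcm7 (chr5:138164583-138172422 on mm10, minus strand) stood at 40.4, 62.6 and 83.2 CPM in Nsd2fl/fl replicates 1 to 3 and at 57.1, 57.6 and 64.1 CPM in Nsd2ΔIE replicates 1 to 3. The Nsd2ΔIE values lay close together inside the Nsd2fl/fl range. The Nsd2fl/fl mean was 62.1 ± 21.4 CPM and the Nsd2ΔIE mean 59.6 ± 3.92 CPM (± SD, 3 libraries each, as for all means below), and the log2 fold change was -0.06 ± 0.25 (SE, adjusted p = 0.942). Over the 6 subunits the fold change lay between -0.10 and 0.02 on the log2 scale, 4 negative and 2 positive, with signs that turned for Mcm2, Mcm3, Mcm4, Mcm5, Mcm6 and Mcm7 under one or more other scalings or filters. Each of the 6 was lowest in Nsd2fl/fl replicate 1 and highest in Nsd2fl/fl replicate 3, as their summed level of 221, 332 and 477 CPM in Nsd2fl/fl and 335, 295 and 372 CPM in Nsd2ΔIE also shows.

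Of the factors that load and start the helicase, Cdc6, the loader, was the least abundant of the 37 genes per length. Cdc6 (chr11:98907801-98923940, plus strand) had 4.60, 10.6 and 13.0 CPM in Nsd2fl/fl and 6.84, 6.31 and 7.71 CPM in Nsd2ΔIE. Nsd2fl/fl replicate 1 was below, and the other Nsd2fl/fl libraries above, every Nsd2ΔIE library. Its log2 fold change was -0.44 ± 0.37 (SE) with adjusted p = 0.699. Gins2, a subunit of the GINS complex (chr8:120578633-120589304, minus strand), had the largest positive fit of the list. It stood at 5.48, 9.72 and 12.4 CPM in Nsd2fl/fl and at 9.41, 9.13 and 11.5 CPM in Nsd2ΔIE, and its log2 fold change was 0.12 ± 0.30 (SE, adjusted p = 0.898). Exons of Gse1 on the opposite strand cover 67.3% of the exon bases of Gins2, and reads of the pair may be mixed, since the use of strand in counting is not given in the sources used here. Cdc45, the remaining helicase activator, had a log2 fold change of -0.14 ± 0.31 (SE).

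Among the genes of nucleotide supply, Rrm2 varied most of all 37. Rrm2 (chr12:24708241-24714146, plus strand) had 9.43, 24.7 and 38.8 CPM in Nsd2fl/fl and 11.6, 15.9 and 19.1 CPM in Nsd2ΔIE. The Nsd2ΔIE values all lay between the lowest and the middle Nsd2fl/fl value. Its log2 fold change of -0.65 ± 0.48 (SE) was the most negative of the list, with adjusted p = 0.658. Pcna, the sliding clamp (chr2:132249162-132253314, minus strand), had 83.4, 134 and 167 CPM in Nsd2fl/fl and 101, 112 and 114 CPM in Nsd2ΔIE. Here too Nsd2fl/fl replicate 1 lay below and the other Nsd2fl/fl libraries above all of Nsd2ΔIE, and the log2 fold change was -0.23 ± 0.24 (SE) with adjusted p = 0.750. Rrm1, the large reductase subunit, and Tyms, thymidylate synthase, had log2 fold changes of -0.20 and -0.21. Tyms had the narrowest spread of the list, 1.54-fold over the Nsd2fl/fl libraries and 1.08-fold over the Nsd2ΔIE libraries.

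The G1/S regulators had the median log2 fold change nearest to 0 among the roles, at -0.01 over 3 genes. Ccne1, the cyclin that activates CDK2 at S phase entry (chr7:38097984-38107534, minus strand), had 4.52, 5.85 and 10.1 CPM in Nsd2fl/fl and 5.48, 6.36 and 8.51 CPM in Nsd2ΔIE. The ranges overlapped almost entirely, and the log2 fold change was -0.01 ± 0.34 (SE) with adjusted p = 0.995, the highest of the list. E2f1, the activating E2F factor, was fitted at -0.08 ± 0.29 (SE) on the log2 scale and Ccne2, the second E-type cyclin, at 0.08 ± 0.42 (SE). Ccne2 was among the widest in Nsd2fl/fl, with 3.46-fold between the lowest and the highest library.

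In the mitotic cyclins and their kinase CDK1, Nsd2ΔIE replicate 1 joined Nsd2fl/fl replicate 1 at the low end. Ccna2, the cyclin of S phase and G2 (chr3:36564865-36572150, minus strand), had 25.6, 61.0 and 68.5 CPM in Nsd2fl/fl and 23.4, 48.6 and 53.9 CPM in Nsd2ΔIE. A low library in each genotype thus stood apart from the other 2. The log2 fold change was -0.30 ± 0.43 (SE) with adjusted p = 0.822. Ccnb2 (chr9:70407692-70421547, minus strand) was the only mitosis gene with a positive fit, at 14.7, 22.6 and 24.1 CPM in Nsd2fl/fl and 12.03, 26.1 and 27.2 CPM in Nsd2ΔIE, with a log2 fold change of 0.09 ± 0.34 (SE). Ccnb1 and Cdk1, which drive entry into mitosis, had log2 fold changes of -0.37 and -0.36. Ccnb1 is recorded with the limit that a processed copy, Ccnb1-ps, has its own row in the count tables, so reads may have been divided between them.

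Kinases and checkpoint proteins of mitosis had the most negative fits as a group, with a median log2 fold change of -0.42 over 6 genes. Aurkb, the Aurora kinase of the chromosomal passenger complex (chr11:69045647-69051664, plus strand), had 10.7, 20.7 and 25.7 CPM in Nsd2fl/fl and 8.55, 15.4 and 16.0 CPM in Nsd2ΔIE. The lowest library of the 6 was Nsd2ΔIE replicate 1, and Nsd2fl/fl replicate 1 lay below the other Nsd2ΔIE libraries. The means of 19.0 ± 7.62 and 13.3 ± 4.16 CPM gave a log2 fold change of -0.51 ± 0.37 (SE), with adjusted p = 0.653. Plk1, which acts on centrosomes and kinetochores (chr7:122159439-122169873, plus strand), had 12.6, 30.7 and 30.9 CPM in Nsd2fl/fl and 11.1, 20.8 and 21.2 CPM in Nsd2ΔIE. Its order of libraries was that of Aurkb, and the log2 fold change was -0.48 ± 0.40 (SE, adjusted p = 0.693). The spindle checkpoint kinases Bub1 and Bub1b had log2 fold changes of -0.50 and -0.27, Aurka, the spindle pole kinase, one of -0.36, and Birc5 (survivin), a partner of Aurkb, one of -0.31.

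Ube2c and Cdc20 work with the anaphase-promoting complex, which marks mitotic proteins for destruction. Ube2c (chr2:164769898-164778822, plus strand) had 15.6, 42.1 and 41.5 CPM in Nsd2fl/fl and 14.2, 32.8 and 33.7 CPM in Nsd2ΔIE. A single library was low in each genotype, replicate 1 in both, although the replicate numbers do not mark a shared day or batch in the labels. The log2 fold change was -0.30 ± 0.46 (SE) with adjusted p = 0.834, and -0.27 for Cdc20. Exons of Tnnc2 on the opposite strand cover 22.8% of the exon bases of Ube2c.

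At the centromere, Cenpa, the histone variant that defines it (chr5:30666777-30674830, plus strand), had 12.2, 23.1 and 22.1 CPM in Nsd2fl/fl and 10.5, 21.8 and 24.6 CPM in Nsd2ΔIE. The means of 19.2 ± 6.02 and 19.0 ± 7.48 CPM were nearly equal, and the log2 fold change was -0.01 ± 0.37 (SE) with adjusted p = 0.992. Cenpf, a large protein of the outer kinetochore (chr1:189640606-189688086, minus strand), had 13.9, 25.4 and 25.9 CPM in Nsd2fl/fl and 11.2, 22.0 and 22.9 CPM in Nsd2ΔIE, with a log2 fold change of -0.22 ± 0.34 (SE). Cenpe, a kinetochore motor, had one of -0.37.

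Of the spindle proteins, Kif11, the motor that pushes the spindle poles apart (chr19:37376403-37421859, plus strand), had 22.0, 41.6 and 51.7 CPM in Nsd2fl/fl and 18.04, 37.1 and 34.5 CPM in Nsd2ΔIE. Kif20a, a motor of cytokinesis, had 15.3, 31.3 and 33.2 CPM in Nsd2fl/fl and 13.2, 22.4 and 22.6 CPM in Nsd2ΔIE. In both genes replicate 1 of each genotype was low, and the ranges overlapped. The log2 fold changes were -0.36 ± 0.38 (SE) for Kif11, with adjusted p = 0.749, and -0.46 ± 0.34 (SE) for Kif20a, with adjusted p = 0.661. Exons of Cdc23 on the opposite strand cover 29.3% of the exon bases of Kif20a. Kif23, another motor of cytokinesis, and Tpx2, which activates Aurora A on the spindle, had log2 fold changes of -0.37 and -0.42.

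The general markers resembled the mitosis genes. Top2a, the topoisomerase that untangles replicated DNA (chr11:98992943-99024189, minus strand), had 71.3, 131 and 168 CPM in Nsd2fl/fl and 62.5, 101 and 115 CPM in Nsd2ΔIE. Nsd2ΔIE replicate 1 was the lowest library and Nsd2fl/fl replicate 3 the highest. The log2 fold change was -0.41 ± 0.35 (SE) with adjusted p = 0.702. Mki67, which coats mitotic chromosomes, ranged from 114 to 226 CPM in Nsd2fl/fl and from 85.3 to 162 CPM in Nsd2ΔIE, with a log2 fold change of -0.40 ± 0.32 (SE).

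**Figure D2:**
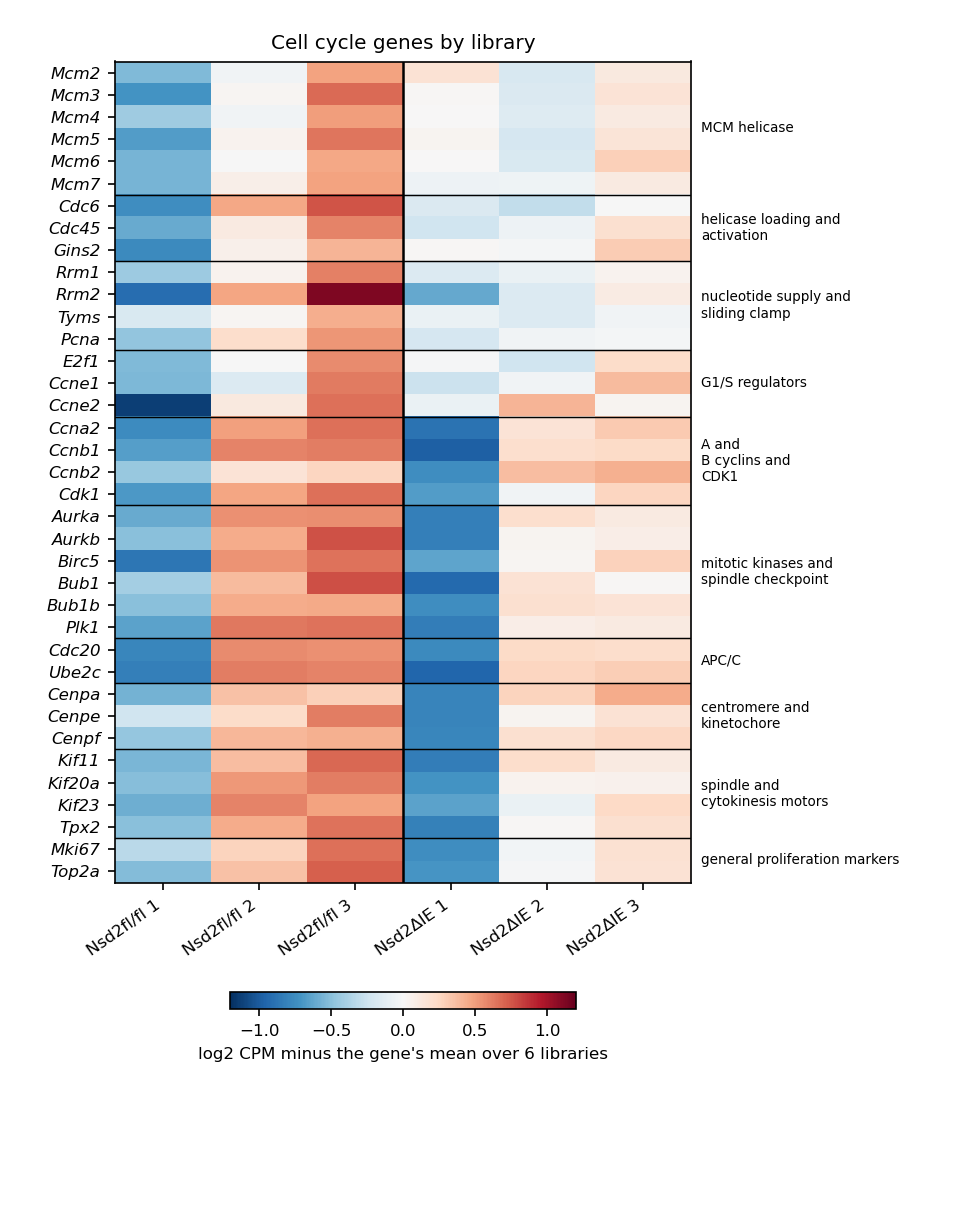
Level of each of the 37 genes in each library, as log2 CPM minus the mean of the gene over the 6 libraries (colour scale), with rows grouped by role and a vertical line between the genotypes. Nsd2fl/fl replicate 1 is blue in all rows and Nsd2fl/fl replicate 3 red in all rows, whereas Nsd2ΔIE replicate 1 is near 0 in most replication rows and blue in the mitosis rows.

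On the scale per gene length (FPKM, fragments scaled to gene length and library total, as deposited), Pcna was the most abundant of the 37, at 67.0, 98.4 and 124 FPKM in Nsd2fl/fl and 82.4, 91.6 and 97.9 FPKM in Nsd2ΔIE. It stood above the next gene, Ube2c, in each of the 6 libraries, with a mean of 93.6 against 31.9 FPKM. Ube2c was followed by Mcm7 at 21.0, Mcm6 at 20.5 and Top2a at 20.4 FPKM, and the order of these 4 changed between libraries. At the low end stood Cenpe at 2.16, Cenpf at 1.77 and Cdc6 at 1.69 FPKM. Cdc6 and Cenpf exchanged places between libraries, with 0.972 to 2.54 FPKM for Cdc6 and 1.01 to 2.17 FPKM for Cenpf.

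**Figure D3:**
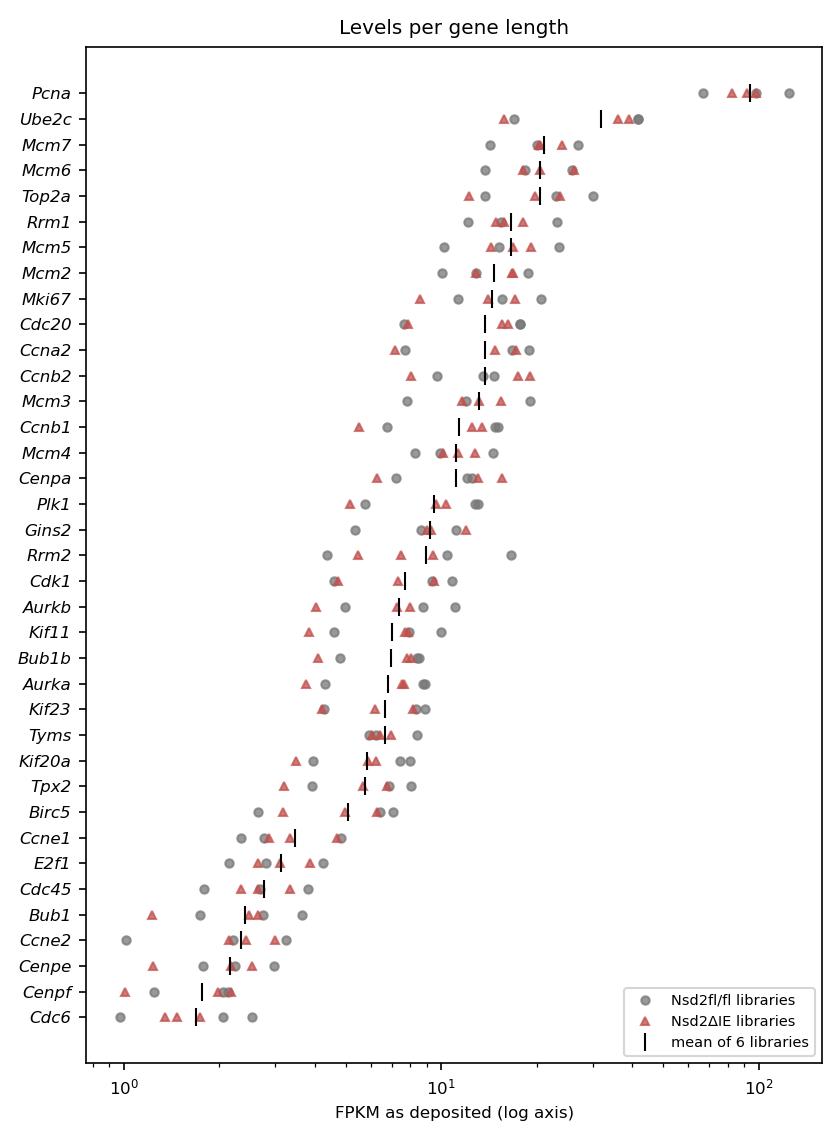
Deposited FPKM of each gene in each library on a log axis, with genes in order of their mean (vertical bar), circles for Nsd2fl/fl and triangles for Nsd2ΔIE libraries. Pcna lies apart at the top with 67.0 to 124 FPKM, and neighbouring genes below it overlap.

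Replication and mitosis genes differed in which library was the lowest. All 16 replication genes were lowest in Nsd2fl/fl replicate 1 and highest in Nsd2fl/fl replicate 3. Of the 19 mitosis genes, 16 were lowest in Nsd2ΔIE replicate 1 and 3 in Nsd2fl/fl replicate 1, and 14 were highest in Nsd2fl/fl replicate 3. Among all genes tested, 16.7% were lowest in Nsd2fl/fl replicate 1, 10.2% were lowest in Nsd2ΔIE replicate 1 and 23.9% were highest in Nsd2fl/fl replicate 3. With library totals alone in place of TMM factors, the lowest library of both gene groups was as before, and 14 replication genes were highest in Nsd2fl/fl replicate 3 and 2 in Nsd2ΔIE replicate 3.

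The groups parted in Nsd2ΔIE replicate 1. The level in that library over the mean of Nsd2ΔIE replicates 2 and 3 was 0.507 in the median mitosis gene, with a range of 0.428 to 0.603, and lay below 1 in 19 of 19. For replication genes the same ratio was 0.945, with a range of 0.663 to 1.15, and lay below 1 in 11 of 16. The ranges of the gene groups did not overlap, with Rrm2 as the lowest replication gene. In Nsd2fl/fl replicate 1, by contrast, both groups were low against replicates 2 and 3, with median ratios of 0.462 for mitosis and 0.554 for replication genes. Set against each other, Nsd2ΔIE replicate 1 lay above Nsd2fl/fl replicate 1 in 16 of 16 replication genes, with a median ratio of 1.42, and below it in 16 of 19 mitosis genes, with a median of 0.856. The mean log2 CPM of the mitosis genes minus that of the replication genes was -0.97 in Nsd2ΔIE replicate 1 and between -0.30 and 0.10 in the other 5 libraries. This pattern was seen in the data and then described, it rests on single libraries, and genes of one library are not replicates, so no test was made.

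Other genes of the cycle, listed by role and not among the 37, had the same lowest libraries in most cases. Of 51 other replication factors, such as origin recognition, polymerase and clamp loader subunits, 45 were lowest in Nsd2fl/fl replicate 1 and 4 in Nsd2ΔIE replicate 1. Of 56 other mitosis factors, 41 were lowest in Nsd2ΔIE replicate 1 and 14 in Nsd2fl/fl replicate 1. The median ratio of Nsd2ΔIE replicate 1 to the mean of replicates 2 and 3 was 0.878 for the replication factors and 0.545 for the mitosis factors. Here the ranges overlapped widely, with 0.498 to 1.32 for replication factors and 0.341 to 1.03 for mitosis factors.

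**Figure D4:**
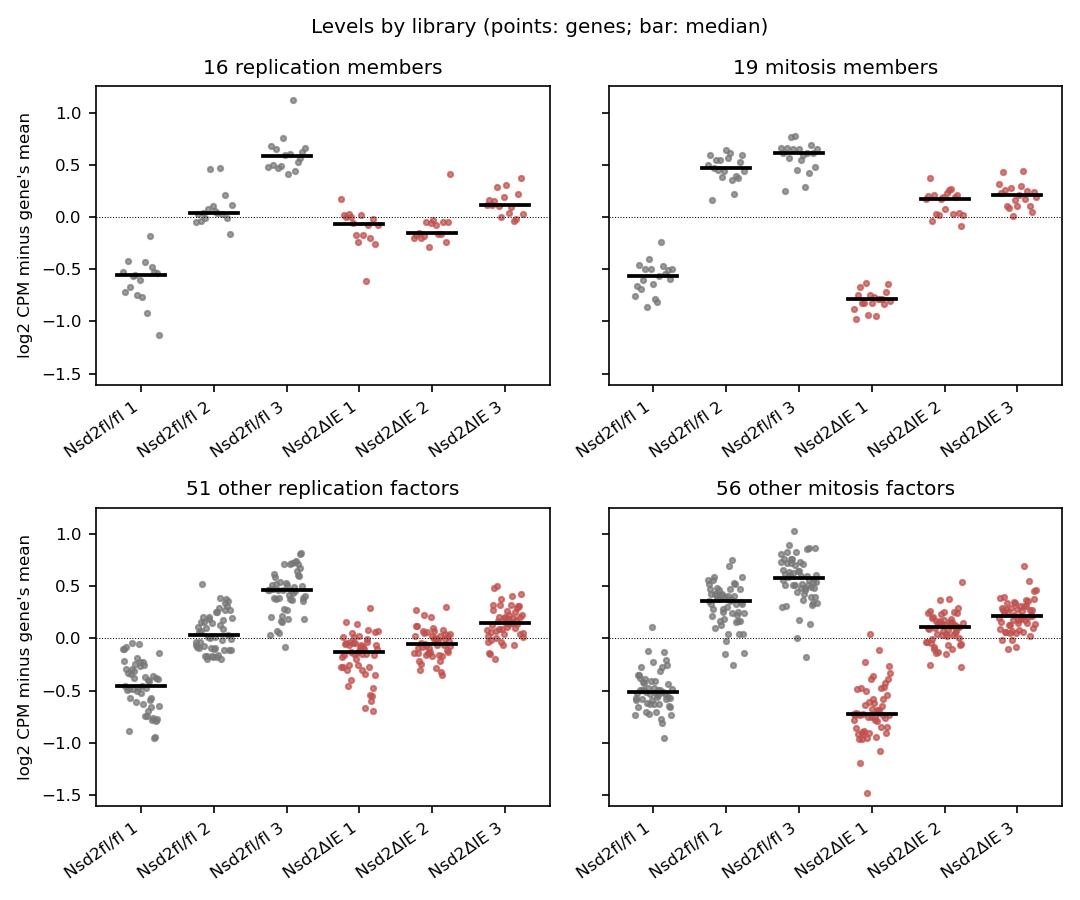
Level of each gene (point) in each library as log2 CPM minus the mean of the gene over the 6 libraries, with a bar at the median of the genes, for the 16 replication and 19 mitosis genes of the list and for 51 other replication and 56 other mitosis factors (grey, Nsd2fl/fl; red, Nsd2ΔIE). Nsd2ΔIE replicate 1 lies near 0 in the replication panels and is the lowest library in the mitosis panels.

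The libraries also differed in cell content, and in bulk tissue fewer cells of a type and less RNA per cell cannot be told apart. The 9 general epithelial markers, among them Epcam and Vil1, summed to 13241, 21916 and 15691 CPM in Nsd2fl/fl and to 14619, 13726 and 12692 CPM in Nsd2ΔIE, and 0 of 9 were past the looser threshold, although all 9 fits were negative with a median of -0.30. Smooth muscle markers summed to 1356 to 3971 CPM in Nsd2fl/fl and 4945 to 10619 CPM in Nsd2ΔIE, with 5 of 7 higher at the looser threshold. Enteric neuron and glia markers summed to 38.2 to 62.0 CPM and 81.9 to 106 CPM, with 7 of 7 higher. At the same threshold 2 of 4 adipocyte, 2 of 6 fibroblast and 1 of 5 endothelial markers were higher, and 0 of 6 T cell and 0 of 6 macrophage markers passed. Markers of the muscle wall and its nerves thus took a larger share of the counts in each Nsd2ΔIE library than in any Nsd2fl/fl library. With the mean level of the epithelial markers as a covariate, the median log2 fold change of the 37 genes was -0.01 beside -0.02 for all genes, with 21 negative and 16 positive fits. In that fit 0 of the 37 had an unadjusted p under 0.05 by edgeR, beside 1578 of the 16347 genes tested.

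Summed epithelial and stem cell markers did not follow the order of libraries of the 37 genes. Nsd2ΔIE replicate 1 had the highest epithelial sum of its genotype, and Nsd2fl/fl replicate 1 the lowest of its own. Crypt stem cell markers such as Lgr5 and Ascl2 summed to 272, 188 and 240 CPM in Nsd2fl/fl and 264, 224 and 247 CPM in Nsd2ΔIE, with 0 of 7 tested markers past the looser threshold and Olfm4 at 1 to 17 counts per library. Replicate 1 had the highest sum of each genotype, but members differed, with Lgr5 lowest in Nsd2ΔIE replicate 1 among its genotype (10.4, 15.7 and 12.6 CPM) and Cdca7, the largest part of the sum, lowest in Nsd2fl/fl replicate 1 (55.7, 64.5 and 82.4 CPM). Surface colonocyte markers summed to 3223, 11131 and 3012 CPM in Nsd2fl/fl and 4848, 10259 and 5966 CPM in Nsd2ΔIE, with 1 of 7 lower at the looser threshold. Car1 made up most of the sum where it was high, at 7837 CPM in Nsd2fl/fl replicate 2 and 8057 CPM in Nsd2ΔIE replicate 2, whereas Slc26a3, Aqp8 and Slc20a1 were highest in Nsd2ΔIE replicate 1, at 1061, 624 and 548 CPM, against 298, 252 and 70.1 CPM in Nsd2fl/fl replicate 2. Germinal centre B cell markers, of a lymphocyte type that divides fast, summed to 30.7, 34.0 and 38.5 CPM and 36.1, 39.8 and 36.0 CPM, with 0 of 5 tested past the looser threshold. B and plasma cell markers ranged from 1262 to 2417 CPM in Nsd2fl/fl, highest in replicate 3, and from 1046 to 1519 CPM in Nsd2ΔIE, with 0 of 7 past the looser threshold. The part of these cell types, and of the Hoxb13 split, in the levels of the 37 genes was not tested.

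**Figure D5:**
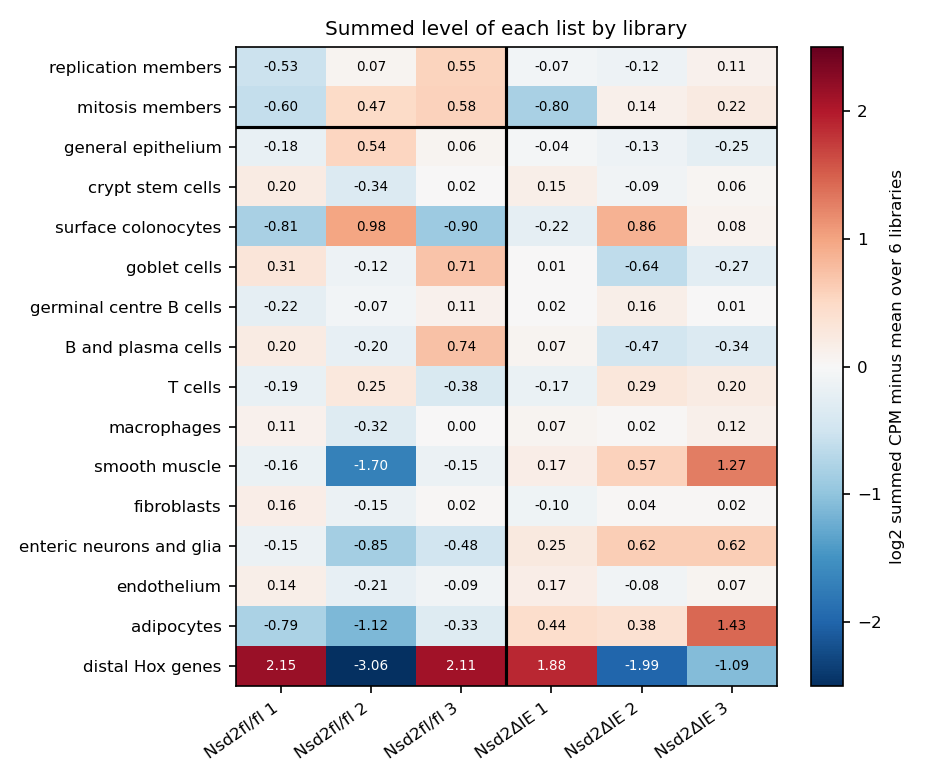
Summed CPM of the replication and mitosis genes (top rows) and of each cell type marker list in each library, as log2 difference from the mean over the 6 libraries (printed and coloured), with a vertical line between the genotypes. The mitosis genes are at -0.60 and -0.80 in replicate 1 of Nsd2fl/fl and Nsd2ΔIE, and smooth muscle is highest in the Nsd2ΔIE columns.

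The comparison depended on single libraries. Without Nsd2fl/fl replicate 1, all 37 fits were negative with a median of -0.57, and 7 of 37 genes (18.9%) passed the looser threshold as lower in Nsd2ΔIE, beside 4.48% of all genes tested in that fit. The 7 were Cdc6, Rrm2, Pcna, Plk1, Aurkb, Kif20a and Kif23, with log2 fold changes from -1.03 for Rrm2 to -0.47 for Pcna, and their adjusted p was 0.173 to 0.306 by edgeR. Without Nsd2fl/fl replicate 3, the median of the 37 was -0.06, with 22 negative and 15 positive fits, and without Nsd2ΔIE replicate 1 it was -0.08. In none of the 6 fits with a library left out did a gene of the list reach an adjusted p under 0.05, where 3 to 5 of all genes tested did.

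Upstream and around the 37 genes, 148 of 149 other genes of the cycle could be tested, and 1 was higher and 1 lower at the looser threshold, with 0 at an adjusted p under 0.05. Cdkn2a, which encodes the INK4A and ARF inhibitors, was too low to test. E2f2, an activating E2F factor, was the lower gene, with 11.8, 33.6 and 45.9 CPM in Nsd2fl/fl and 8.98, 12.2 and 15.1 CPM in Nsd2ΔIE. The genotypes overlapped through Nsd2fl/fl replicate 1, which lay below 2 of the Nsd2ΔIE libraries. Its log2 fold change was -1.33 ± 0.47 (SE) with adjusted p = 0.386. Wee1, the kinase that holds CDK1 inactive before mitosis, was the higher gene, with 22.5, 22.4 and 24.1 CPM in Nsd2fl/fl and 32.5, 30.2 and 28.8 CPM in Nsd2ΔIE. Its groups did not overlap, and the log2 fold change was 0.41 ± 0.11 (SE) with adjusted p = 0.307.

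Foxm1 and Mybl2, transcription factors of mitosis genes, followed the mitosis pattern. Foxm1 had 10.9, 20.7 and 21.9 CPM in Nsd2fl/fl and 10.2, 15.9 and 18.1 CPM in Nsd2ΔIE. Mybl2 had 5.53, 14.5 and 12.9 CPM in Nsd2fl/fl and 5.35, 8.63 and 11.2 CPM in Nsd2ΔIE, so that replicate 1 was the lowest library of each genotype in both genes. Their log2 fold changes were -0.28 ± 0.32 (SE) and -0.39 ± 0.41 (SE), with adjusted p = 0.781 and 0.756. Ccnd1, the D-type cyclin that starts the cycle, had 85.3, 140 and 158 CPM in Nsd2fl/fl and 126, 128 and 147 CPM in Nsd2ΔIE, with a log2 fold change of 0.06 ± 0.23 (SE). Cdkn1a, the p21 inhibitor, had 237, 240 and 211 CPM in Nsd2fl/fl and 225, 158 and 189 CPM in Nsd2ΔIE. The genotypes overlapped through Nsd2ΔIE replicate 1, and its log2 fold change was -0.27 ± 0.16 (SE) with adjusted p = 0.588. By list, the median log2 fold change was -0.07 over the replication factors, -0.26 over the mitosis factors, -0.03 over the G1 cyclins, CDKs and E2F-RB genes, -0.02 over the inhibitors of the cycle and -0.09 over the checkpoint kinases.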

How the data were processed

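RNA from the colon of Nsd2fl/fl and Nsd2ΔIE mice, 3 libraries each, was extracted with TRIzol. The authors deposited a raw read count per gene symbol for each library. They also deposited an FPKM value per gene, derived from the same counts by gene length and column total without further scaling. The submitters' processing notes name fastp, HISAT2, HTSeq and R 3.2.0 and the build mm10. The annotation and the use of strand are not given in the sources used here, nor is a model for counts. Groups and replicate numbers came from the labels.

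Counts were analysed in R 4.3.3 with edgeR 4.0.16 (filterByExpr, TMM factors, two-sided quasi-likelihood test, Benjamini-Hochberg adjustment over all 16347 genes tested). The looser threshold uses the p and the fold that the study applied to genes lower in Nsd2ΔIE, here in both directions. DESeq2 1.42.0 and limma 3.58.1 (voom, and log2 FPKM with a pseudocount of 1 or 0.1) served as alternatives, with other scalings, no filter, a replicate block, an epithelial covariate, a stricter fold of 1.5 and each library left out. The procedure was tested on simulated data. Intervals cover 95%. Pairs of libraries differed beyond sampling noise, so none was counted as a duplicate. Positions and overlapping exons came from GENCODE (mm10), and promoters from RefSeq with 1 window per gene.

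The 37 genes and all lists were chosen with earlier results of these data known. Values in each library are given for the gene with the highest FPKM of each role, for the 3 genes with the smallest p, for the 2 largest and 2 smallest fold changes and for the 2 highest and 2 lowest FPKM. The rest of the 37 are named by role with their fold change, Mcm2 to Mcm6 by its range only. Of the other cycle genes, those past the looser threshold and Cdkn1a, Ccnd1, Foxm1 and Mybl2 are given, and the rest by the median of their list.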

Additional observations from a re-analysis of the deposited data

How the results depend on the processing

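No gene of the list reached an adjusted p under 0.05 in any of 16 alternative fits, the lowest being 0.173, and 17 of the 37 kept the sign of their fold change in all of them. At that adjusted p, DESeq2 called 455 of all genes tested and the other fits 3 to 6. With 3 libraries a genotype, the intervals reached a median of 1.76-fold to either side of the fitted value.

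The count of genes lower at the looser threshold, 0 in the report, was 10 with a replicate block (27% of the list, beside 3.68% of all genes) and 0 to 7 with a library left out, 7 without Nsd2fl/fl replicate 1 (18.9%, beside 4.48%). The count of other cycle genes past it, 2 in the report, was 5 under library totals, 4 under upper-quartile scaling, 1 by limma-voom, 19 with a replicate block, 1 at a fold over 1.5 and 2 to 17 with a library left out, with 17 when Nsd2fl/fl replicate 1 was dropped and 4 when Nsd2fl/fl replicate 3 was. The fold change of Nsd2 with DESeq2 was -1.22 (adjusted p = 3.88e-07), and its adjusted p ranged up to 0.990 over the alternatives. The replicate numbers were not taken to pair the libraries, because the labels name no shared day or batch for them. Deviations of same-numbered libraries correlated at 0.50, 0.64 and -0.17, and those of Nsd2fl/fl replicate 3 and Nsd2ΔIE replicate 1 at 0.45. Each of these pairs with a positive value lay on one side of the Hoxb13 split. Nsd2fl/fl replicate 2 and Nsd2ΔIE replicate 3, also on one side, correlated at 0.29. Pairs across the split all had negative values, from -0.66 to -0.17, and the same-numbered pair of replicate 3 was one of them. The correlations thus followed the sides of the split and not the replicate numbers. A further effect of pairing was not tested.

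Signs turned in 75 of 592 combinations of gene and alternative. All were of genes with no call in the report, and the cause was not tested. With library totals alone, which moved the median of all genes from -0.04 to 0.09, the log2 fold change became positive for Mcm3 (0.051), Mcm4 (0.067), Mcm5 (0.044), Mcm7 (0.083), Cdc45 (0.0085), E2f1 (0.065), Ccne1 (0.14) and Cenpa (0.13). With upper-quartile factors it did so for Mcm7 (0.013), Ccne1 (0.063) and Cenpa (0.060), with limma-voom for Ccne1 (0.11) and Cenpa (0.16), and with a replicate block for Mcm3 (0.0025) and Ccne1 (0.047). On the log2(FPKM + 1) scale it did so for Mcm3 (0.12), Mcm4 (0.090), Mcm5 (0.10), Mcm7 (0.12), Cdc45 (0.033), E2f1 (0.072), Ccne1 (0.13) and Cenpa (0.075), and on the log2(FPKM + 0.1) scale for Mcm3 (0.13), Mcm4 (0.0996), Mcm5 (0.11), Mcm7 (0.13), Cdc45 (0.056), E2f1 (0.10), Ccne1 (0.17) and Cenpa (0.076). With the epithelial covariate it did so for Mcm3 (0.055), Mcm5 (0.046), Mcm7 (0.087), Cdc45 (0.0080), E2f1 (0.010), Ccna2 (0.026), Birc5 (0.078), Cdc20 (0.12), Ube2c (0.12), Cenpa (0.23) and Cenpf (0.0033). Without a filter it became negative for Mcm2 (-0.021) and Mcm6 (-0.012). With a library left out the log2 fold change ranged from -0.20 to 0.32 for Mcm2, -0.20 to 0.31 for Mcm6, -0.15 to 0.41 for Gins2, -0.28 to 0.53 for Ccne2, -0.10 to 0.39 for Ccnb2, -0.26 to 0.29 for Cenpa, -0.38 to 0.32 for Mcm3, -0.27 to 0.21 for Mcm4, -0.38 to 0.28 for Mcm5, -0.29 to 0.22 for Mcm7, -0.40 to 0.19 for Cdc45, -0.42 to 0.12 for Rrm1, -0.47 to 0.013 for Pcna, -0.31 to 0.25 for E2f1, -0.24 to 0.39 for Ccne1, -0.63 to 0.0031 for Ccna2, -0.60 to 0.0015 for Cdc20, -0.64 to 0.023 for Ube2c and -0.46 to 0.058 for Cenpf. The low end of each of these ranges was without Nsd2fl/fl replicate 1, and the high end was without Nsd2fl/fl replicate 3 or Nsd2ΔIE replicate 1.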
